A study of Mus musculus with 120 samples.

Results

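The 107 genes described here encode the protein subunits of oxidative phosphorylation in mouse group 2 innate lymphoid cells (ILC2), together with assembly factors of complex I whose symbols share the Ndufa prefix. They were taken by symbol among 46078 gene identifiers: protein-coding genes that start with Ndufa, Ndufb, Ndufc, Ndufs, Ndufv, Cox4 to Cox8, Uqcr, Atp5, mt-Nd, mt-Co, mt-Atp or mt-Cytb, and Sdha, Sdhb, Sdhc, Sdhd and Cyc1. Of these genes, 94 lie on nuclear chromosomes and 13 on the mitochondrial genome. By complex, the nuclear genes comprised 36 of complex I, 4 of complex II, 9 of complex III, 20 of complex IV, 17 of complex V and 8 complex I assembly factors. The mitochondrial genes comprised 7 of complex I, 1 of complex III, 3 of complex IV and 2 of complex V. Ndufa4 and Ndufa4l2 were counted with complex IV, where the Ndufa4 protein resides.

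The data are 3′ RNA-seq read counts of 120 single ILC2 from the pooled mesentery of 20 C57BL/6 mice, sorted as lineage-negative c-Kit+ Sca-1+ cells and kept for months in culture with interleukin (IL) 2. All cells except those recovered before stimulation received IL-2 and IL-33, and secretion of 1 index cytokine, IL-13 or IL-5, was imaged in each cell. The cells imaged for 1 cytokine are called an arm here. In each arm, cells were recovered before stimulation (pre, 5 cells), at 30, 60 or 90 min after that cell's own onset of secretion (11 cells each), or 8 h after stimulation as secreting (activated, 11 cells) or non-secreting (silent, 11 cells) cells, which gives 12 groups. The titles carry 2 dates in each arm, with no date shared between the arms, and all pre cells of an arm carry the first date, so arm and date cannot be told apart. No animal or culture is named for any cell, so a group was counted as 1 sample, no test was made, and every interval below covers counting error only; reads were not collapsed by molecular identifiers. Cells were cultured long term from a single pool, which limits how far they stand for ILC2 in tissue.

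Oxidative phosphorylation passes electrons from NADH and succinate through complexes I to IV to oxygen and uses the resulting proton gradient to make ATP at complex V. Complexes I, III, IV and V are built from subunits of 2 genomes, because a small set of core subunits is encoded by mitochondrial DNA and transcribed inside the organelle, whereas complex II is entirely nuclear. Activated lymphocytes are known to draw on both glycolysis and respiration, and ILC2 in particular on fatty acid oxidation.

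Gene reads per cell ranged from 65 to 785198 with a median of 254001. In all, 6 cells held fewer than 84667 reads, the median divided by 3, and values over cells are given for the other 114, at 87548 reads or more, whereas group levels sum all cells. Levels are counts per 1000000 gene reads (CPM) of the summed cells of a group. In 3′ libraries a gene's reads depend on how its own 3′ end was captured, so levels were compared between groups. Where reads of different genes are set side by side, they describe reads and not amounts of transcript. The ILC2 markers Gata3, Il1rl1, Ly6a and Id2 had reads in 112, 109, 114 and 112 of 114 cells. Of the 15 markers in this list, Rora, Il2ra, Kit and Klrg1 had reads in 111, 109, 107 and 90 cells, Icos and Ptprc in 68 each, and Thy1, Il7r, Bcl11b, Areg and Il17rb in 53, 45, 27, 13 and 13. Their sum was 12646 and 11918 CPM in pre and 11757 and 12919 CPM at 30 min, but 6427 and 8553 CPM in activated and 7160 and 7927 CPM in silent cells, in IL-13 and IL-5 order. Of the markers of other cell types, Cd4, Cd8a, the B cell markers Cd79a and Ms4a1, the myeloid markers Lyz2, Csf1r, Itgam and Cd14, the mast cell markers Mcpt4 and Tpsb2, and Adipoq, Plin1 and Col1a1 had 0 reads. Pecam1 had reads in 75 cells (up to 175 CPM in a group), Fcer1a in 15 (up to 326 CPM), and Cpa3 and Cd68 in 2 each. T-cell receptor transcripts were limited mainly to Trbc2 (96 cells) and Cd3g (26 cells). The 7 T cell markers summed to 296 to 1768 CPM over groups, highest in both pre groups. Pre cell 1 of the IL-13 arm stood apart, with 10121 CPM summed over 7 cell cycle markers against at most 41.5 CPM in the other 4 pre cells of that arm and 4234 genes detected. In the IL-5 arm, pre replicates 3 and 5 held 1156 and 948 CPM of the same markers, against at most 6.52 CPM in the other 3. The part of these markers in the results was not tested, apart from the values given without single cells.

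Nuclear subunit transcripts made up 4.67% of all gene reads and mitochondrial subunit transcripts 0.744%. In the IL-13 arm the summed nuclear level was 53490.2 CPM before stimulation, 35282 CPM at 30 min, 41659 CPM at 60 min, 41058 CPM at 90 min, 57253 CPM in activated cells and 48856 CPM in silent cells. The transition cells therefore carried the lowest and the activated cells the highest nuclear level. In the IL-5 arm the corresponding levels were 45870.1, 43527, 45442, 39475, 51342 and 54015 CPM. Here too the 8 h groups lay above the transition groups, but the pre level lay close to that at 60 min and the silent cells were the highest.

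Over cells of the IL-13 arm, the lowest, median and highest summed nuclear level was 28629, 36872 and 45101 CPM at 30 min. The corresponding values were 36862, 55342 and 72622 CPM in activated and 35367, 49375 and 66503 CPM in silent cells. The 5 pre cells held 34578, 37617, 55726, 62129.5 and 72438 CPM, so the groups overlapped and the pre cells spread over a range like that of the activated cells. Of the 30 min cells, 0 of 11 lay above the pre median and 5 of 11 below the lowest pre cell. In the IL-5 arm the 5 pre cells held 36410.3, 37819.6, 43308, 46651 and 63600.3 CPM. The lowest, median and highest level was 32680.3, 42099.5 and 56982 CPM at 30 min, 42429.8, 52406 and 60280 CPM in activated and 32350.2, 51696 and 66293 CPM in silent cells. These ranges overlapped throughout, and 10 of 11 activated cells lay above the pre median. At 90 min of the IL-5 arm, replicates 1 and 7 were low, at 19341 and 19639 CPM, against 38658 CPM or more in the other 8.

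**Figure D1:**
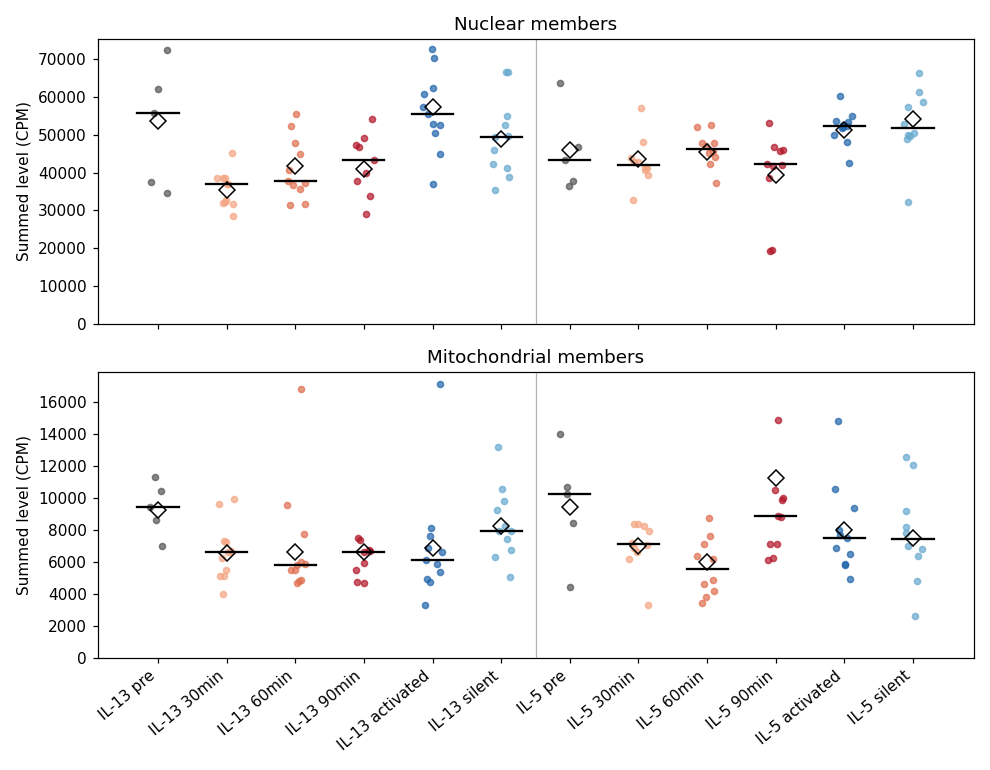
Summed level of the 94 nuclear (top) and 13 mitochondrial (bottom) members in each of 114 cells (points, CPM), by group, with the median of the cells (line) and the level of the summed group of all its cells (open diamond). All 11 cells at 30 min of the IL-13 arm lie under the median of their pre cells for the nuclear members (55726 CPM), and the diamond at 90 min of the IL-5 arm lies above its cells' median for the mitochondrial members, at 11209 CPM, and is 8736.5 CPM without 1 shallow cell that is not plotted.

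The log2 ratio of the summed nuclear level at 30 min to pre was -0.60 (-0.62 to -0.58) in the IL-13 arm and -0.076 (-0.09 to -0.062) for the IL-5 arm, each with its 95% counting interval. The SD over cells, pooled within the groups, was 0.29 on the log2 scale, and the first ratio exceeded it and the second did not. The first was -0.39 with TMM scaling, still beyond this pooled SD. The 5 IL-13 pre cells ranged from 34578 to 72438 CPM, wider than the 30 min cells. The pooled SD may thus understate the spread of that reference. Activated against pre gave 0.10 (0.084 to 0.11) and 0.16 (0.15 to 0.18), and silent against pre -0.13 (-0.15 to -0.12) and 0.24 (0.22 to 0.25), in IL-13 and IL-5 order. All 4 lay within 1 SD over cells in this scaling with all cells, but without IL-5 pre replicate 4 the IL-5 ratios were 0.35 and 0.43, and with TMM scaling activated cells were at 0.33 and 0.63 and silent IL-5 cells at 0.62, beyond it. Activated against silent was 0.23 (0.22 to 0.24) in the IL-13 arm, where 9 of 11 activated cells lay above the silent median, and -0.073 (-0.083 to -0.064) for the IL-5 arm. Both lay within 1 SD over cells and had opposite signs, and the first was 0.41 with TMM. The 3 comparisons against pre in an arm share their 5 pre cells. The IL-13 level at 30 min was similar on both dates, with 35641 CPM in the 5 cells of the first and 35069.9 CPM in the 6 cells of the second. The pre cells were all of the first date, so the ratio itself was not repeated. Within the first and second date, activated against silent was 0.069 and 0.32 in the IL-13 and -0.079 and -0.058 in the IL-5 arm. Against the pre cells, which carry only the first date, the IL-5 ratio at 30 min was -0.0022 and -0.14 and silent IL-13 cells had 0.06 and -0.24, with a change of sign between dates. TMM scaling, which raised the log2 ratio of every gene against pre by 0.054 to 0.24 in the IL-13 and 0.36 to 0.47 in the IL-5 arm, turned the IL-5 ratio at 30 min to 0.28 and that of activated against silent to 0.02. Leaving out IL-5 pre replicate 4, the highest of its group, turned the IL-5 ratio at 30 min to 0.11.

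Mitochondrial transcripts had a different order of groups. Their summed level was 9203 CPM before stimulation in the IL-13 arm and 9394 CPM in the IL-5 arm. It was lower at 30 min, at 6525 and 7007 CPM, with log2 ratios to pre of -0.50 (-0.53 to -0.46) and -0.42 (-0.46 to -0.39). In contrast to the nuclear level, it was also lower than pre in activated cells, at 6851 and 7988 CPM, with log2 ratios of -0.43 (-0.46 to -0.39) and -0.23 (-0.27 to -0.20). Silent cells held 8229 and 7468 CPM, with log2 ratios of -0.16 (-0.20 to -0.13) and -0.33 (-0.36 to -0.30). The SD over cells was 0.47, so the IL-13 ratio at 30 min lay just past it and the 5 others within it. That ratio fell short of the SD with TMM scaling, at -0.28, on the first date, at -0.29, and at -0.43 in the omission of 1 cell that moved it nearest to 0. On the first date the ratio of activated IL-13 cells was -0.61 and that of silent IL-5 cells -0.67. IL-5 cells at 30 min were at -0.52 on that date, and IL-13 cells at 30 min at -0.63 on the second. Omission of 1 cell brought the ratio to -0.60 without IL-13 activated replicate 10 for activated IL-13 cells and to -0.65 and -0.56 without IL-5 pre replicate 4 for IL-5 cells at 30 min and silent IL-5 cells. Which ratios exceeded the SD thus depended on date, scaling and single cells. With TMM scaling the ratios of activated and silent IL-13 cells were -0.19 and -0.11 and that of IL-5 cells at 30 min -0.065. With it the IL-5 ratio of activated to pre turned to 0.24 and that of silent to pre to 0.048, so their direction depends on the scaling. Activated against silent was -0.26 (-0.29 to -0.24) in the IL-13 arm and 0.10 (0.072 to 0.12) for the IL-5 arm, with opposite signs, and -0.083 and 0.19 with TMM. Within the first and second date it was -0.56 and -0.10 in the IL-13 and 0.37 and -0.16 in the IL-5 arm, where the sign differed between dates.

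The 5 pre cells held 6968, 8615, 9415, 10446 and 11297 CPM of mitochondrial members in the IL-13 arm and 4393, 8442, 10204, 10666 and 14010.2 CPM in the IL-5 arm. At 30 min the lowest, median and highest cell held 3997, 6629 and 9903 CPM and 3302, 7107 and 8343 CPM, respectively. Of these cells, 7 of 11 lay below the lowest pre cell in the IL-13 arm and 1 of 10 in the IL-5 arm, where 0 of 10 lay above the pre median. At 60 min the IL-5 group was lowest of all, at 5949.9 CPM, and at 90 min it was highest, at 11209 CPM. That highest rank rested on replicate 11, a cell of 66588 gene reads with 76650.4 CPM of mitochondrial and 4580.4 CPM of nuclear members. Without this cell the group held 8736.5 CPM, under both pre groups. The median mitochondrial share of all member reads over cells was 15.8% and 19.1% before stimulation and 9.81% and 13.2% in activated cells. Across the 114 cells, log2 nuclear and mitochondrial levels had a Pearson's r of -0.22 and Spearman's rho of -0.16, a description over cells that share groups and a common total. The nuclear level correlated with the number of genes detected (r = 0.44) and inversely with mitochondrial rRNA (r = -0.44).

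Gene by gene, a smaller share of the nuclear members than of all genes lay past 2-fold in each comparison at the limits used here. The genes tabulated were the 2658 whose CPM averaged 50 or more across groups, among them 80 nuclear and 6 mitochondrial members. All 94 nuclear members enter the sums, and the 14 others were too sparse for ratios. At 30 min of the IL-13 arm, 10 of 80 nuclear members were at least 2-fold higher and 15 at least 2-fold lower, beside 32.1% and 23.8% of all genes tested, and the median log2 ratio was -0.48 beside 0.048 over all genes. At 30 min of the IL-5 arm, 14 of 80 nuclear members were at least 2-fold higher and 11 at least 2-fold lower, beside 36.2% and 20.4% of all genes tested, and the median log2 ratio was -0.11 beside 0.23 over all genes. The members' median thus lay -0.53 and -0.34 from that of all genes, on the log2 scale. In the IL-13 activated group, 19 of 80 nuclear members were at least 2-fold higher and 6 at least 2-fold lower, beside 35.0% and 23.9% of all genes tested, and the median log2 ratio was 0.31 beside 0.27 over all genes. In the IL-5 activated group, 24 of 80 nuclear members were at least 2-fold higher and 6 at least 2-fold lower, beside 36.2% and 24.9% of all genes tested, and the median log2 ratio was 0.15 beside 0.23 over all genes. In the IL-13 silent group, 14 of 80 nuclear members were at least 2-fold higher and 6 at least 2-fold lower, beside 33.9% and 18.7% of all genes tested, and the median log2 ratio was 0.12 beside 0.25 over all genes. In the IL-5 silent group, 21 of 80 nuclear members were at least 2-fold higher and 7 at least 2-fold lower, beside 35.3% and 21.7% of all genes tested, and the median log2 ratio was 0.20 beside 0.26 over all genes. Without IL-13 pre replicate 1, the cell with the most cell cycle transcripts, 32 of 80 members were higher in activated and 27 in silent cells of that arm, 40.0% and 33.8% beside 42.4% and 40.8% of all genes against the same 4 pre cells. Without IL-13 pre replicate 2, 22 of 80 members or 27.5% were lower at 30 min, beside 23.4% of all genes, the 1 omission of a cell in which a share of members exceeded that of all genes. For activated against silent cells imaged for IL-13, 10 of 80 nuclear members were at least 2-fold higher and 4 at least 2-fold lower, beside 19.8% and 23.6% of all genes tested, and the median log2 ratio was 0.22 beside -0.02 over all genes. For those imaged for IL-5, 8 of 80 nuclear members were at least 2-fold higher and 1 at least 2-fold lower, beside 14.7% and 18.5% of all genes tested, and the median log2 ratio was -0.04 beside -0.07 over all genes. Members were of higher level than most tabulated genes, with 60 of 80 nuclear members and 812 of 2658 genes at a mean of 200 CPM or more. The shares above were thus not matched for level. Under other limits the share of members was not always the smaller. At 1.5-fold it was 42.5% beside 32.4% of all genes for lower members at 30 min of the IL-13 arm. Among the 60 members and 812 genes with a mean of 200 CPM or more, it was 15.0% beside 13.9% and 10.0% beside 9.48% for lower members at 30 min in the IL-13 and IL-5 arm. The IL-5 counts of activated against silent cells rested on few cells, with 4 members higher without IL-5 silent replicate 11 and 4 lower without IL-5 activated replicate 5.

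**Figure D2:**
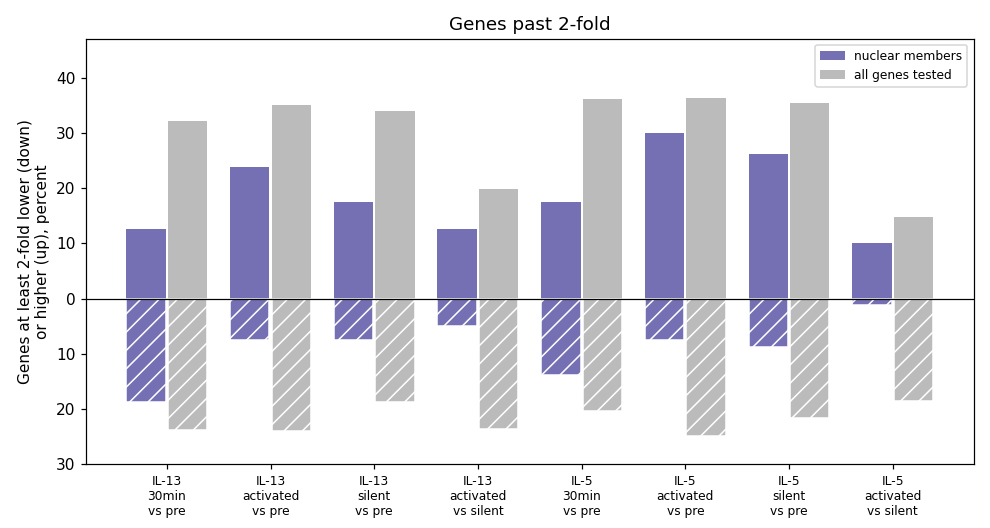
Percent of the 80 nuclear members (purple) and of the 2658 genes tested (grey) that were at least 2-fold higher (upward bars) or lower (downward hatched bars) in each of the 8 comparisons. In every comparison both purple bars are shorter than the grey ones beside them.

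The distance of the members' median from that of all genes does not depend on scaling. It was 0.04, -0.13 and 0.24 for activated against pre, silent against pre and activated against silent in the IL-13 arm and -0.08, -0.056 and 0.031 in the IL-5 arm. TMM scaling moved the median of all genes by 0.054 to 0.47 on the log2 scale, and DESeq2 size factors by -0.13 to 0.11. With TMM, 80.0% of the nuclear members past 2-fold at 30 min of the IL-5 arm were higher in place of 56.0%, and in activated cells of that arm 90.9% in place of 80.0%. Over all genes the share moved from 59.3% to 70.3% for activated and from 61.9% to 72.8% for silent cells of the IL-5 arm.

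The arms do not share pre cells, so the same member can be followed in both. In activated against pre cells, 10 nuclear members were at least 2-fold higher in both arms (12.5% beside 19.9% of all genes) and 3 at least 2-fold lower (3.75% beside 13.2%). The higher members were Atp5f1, Atp5g3, Cyc1, Ndufa9, Ndufab1, Ndufaf4, Ndufb6, Uqcrc1, Uqcrc2 and Uqcrq, and the lower members Cox7a2l, Ndufaf2 and Ndufb10. At 30 min against pre, Atp5f1, Cyc1, Ndufa9, Ndufaf4 and Uqcrc1 were higher and Ndufaf2, Ndufb10 and Ndufs3 lower in both, 6.25% and 3.75% of members beside 17.1% and 7.90% of all genes. In silent against pre cells, Cyc1, Ndufa8, Ndufa9, Ndufaf4 and Ndufaf8 were higher and Ndufb10 lower, 6.25% and 1.25% beside 15.7% and 7.07%. Activated cells held at least 2-fold more of Ndufab1 and Ndufaf4 than silent cells in both arms (2.50% of members beside 4.29% of all genes), but on the first date alone the log2 ratio was 0.24 for Ndufab1 in the IL-13 and 0.60 for Ndufaf4 in the IL-5 arm, and Ndufaf4 was 0.91 without IL-5 activated replicate 10 there. Of these 2 members, 0 stayed past 2-fold in both arms without any 1 cell. Many of these ratios depended on single cells: of 153 ratios past 2-fold among the members named here, 85 stayed past 2-fold without any 1 cell. Of the 10 members higher in both arms in activated cells, 3 did so in both arms, Cyc1, Ndufaf4 and Ndufb6, and of the 3 lower ones 2, Cox7a2l and Ndufaf2. Among the others, Atp5f1 in activated cells was 0.69 without IL-13 pre replicate 5 and 0.82 without IL-5 pre replicate 5, and Atp5g3 0.67 without IL-5 pre replicate 2. In silent cells Ndufb10 was -0.46 without IL-13 pre replicate 4, -0.99 on the first date and -0.94 against the pre cells of both arms, while Ndufaf4 was 0.77 without IL-5 silent replicate 2 and Ndufaf8 0.80 without IL-5 pre replicate 2. At 30 min Ndufa9 was 0.96 without IL-13 30 min replicate 7 and 0.70 without IL-5 30 min replicate 1, and Ndufb10 -0.82 without IL-13 pre replicate 4. Atp5f1 at 30 min of the IL-13 arm was 0.76 without IL-13 pre replicate 5, Uqcrc1 at 30 min of the IL-5 arm 0.66 without IL-5 pre replicate 3, Atp5g3 in activated IL-13 cells 0.90 without IL-13 pre replicate 2, Uqcrq there 0.76 without IL-13 pre replicate 2 and Ndufa9 there 0.96 without IL-13 activated replicate 8, all on the log2 scale. On the first date alone, Atp5f1 was 0.66 at 30 min and Uqcrq 0.86 in activated IL-13 cells. At 30 min of the IL-5 arm, Ndufb10 was -0.79 on that date. Against the pre cells of both arms, Ndufaf8 in silent IL-13 cells was 0.022 and Atp5f1 in activated IL-5 cells 0.93. The members' signs matched between arms in 55.0%, 71.2%, 51.2% and 53.8% of cases for these 4 comparisons in the order 30 min, activated and silent against pre and activated against silent, beside 59.9%, 67.2%, 56.7% and 60.3% of all genes.

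**Figure D3:**
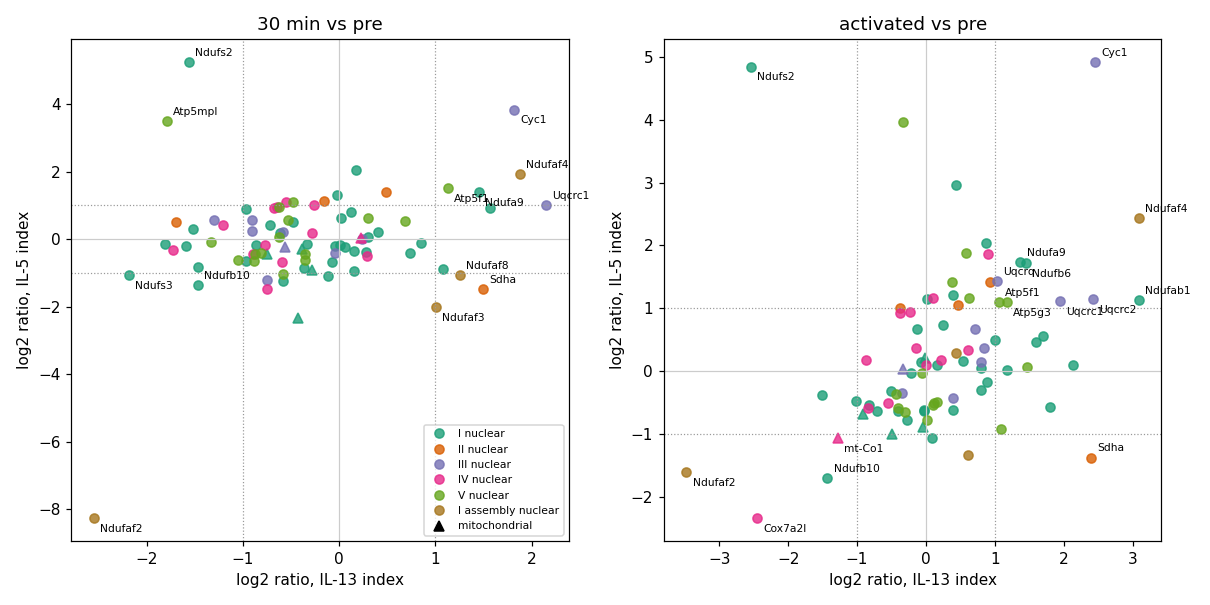
log2 ratio to pre of the 86 members with a mean of at least 50 CPM, in the IL-13 arm (horizontal) and in the IL-5 arm (vertical), at 30 min (left) and in activated cells (right). Circles are nuclear and triangles mitochondrial members, colours give the complex, dotted lines mark 2-fold, and members past 2-fold in both arms are named. Cyc1 and Ndufaf4 lie at the upper right and Ndufaf2 and Ndufb10 at the lower left of both panels.

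Complex I, the NADH dehydrogenase through which most electrons enter the chain, held 16109 CPM in pre, 10877 CPM at 30 min, 17678 CPM in activated and 16829.9 CPM in silent cells of the IL-13 arm. The IL-5 levels were 15789, 13410.2, 16170.5 and 17435 CPM. In both arms the 30 min level was the lowest of these 4, with log2 ratios to pre of -0.57 (-0.59 to -0.54) and -0.24 (-0.26 to -0.21), beside an SD over cells of 0.36. The first was -0.35 with TMM scaling, under the SD. The second was -0.37 without IL-5 pre replicate 2 and -0.018 without IL-5 pre replicate 4, and with TMM it turned to 0.12, where pre was the lowest of the 4. Of 35 tabulated nuclear subunits, 9 were at least 2-fold higher and 4 lower in activated than pre cells of the IL-13 arm, and 8 and 2 in the IL-5 arm, beside 35.0% and 23.9% of all genes in the IL-13 and 36.2% and 24.9% in the IL-5 arm.

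Ndufab1, the mitochondrial acyl carrier protein that is also a complex I subunit, was more than 2-fold higher in activated than in pre and in silent cells of both arms. The 5 pre cells held 0, 0, 0, 185 and 293 CPM in the IL-13 arm and 3.26, 112, 261, 532 and 1033 CPM in the IL-5 arm. In activated cells the lowest, median and highest values were 0, 813 and 2499.9 CPM and 343, 908 and 1366 CPM. Most activated cells thus lay above most pre cells, with overlap, and the group log2 ratios were 3.08 (2.81 to 3.37) and 1.13 (1.00 to 1.27). Silent cells held 0, 253 and 1799 CPM and 0, 338 and 1325 CPM, and activated against silent was 1.19 (1.09 to 1.29) and 1.11 (1.02 to 1.20). The IL-13 ratio to silent cells was 0.24 on the first date alone. These values also rested on single cells, with 0.82 without IL-13 activated replicate 7 and 0.93 without IL-5 silent replicate 2 against silent and 0.71 without IL-5 pre replicate 2 against pre. Ndufaf4, an assembly factor of complex I, had reads in 1 of 5 and 1 of 5 pre cells but in 9 of 11 and 11 of 11 activated cells. Its level was 42.5, 156, 361 and 131 CPM in pre, 30 min, activated and silent cells of the IL-13 arm and 40.4, 153, 218 and 95.9 CPM in the IL-5 arm. Pre cells were lowest in both series, with all of their reads in 1 cell each.

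Ndufb10, an accessory subunit of the membrane arm, had the reverse pattern. Its pre cells held 0, 639.9, 837, 1491 and 3413 CPM in the IL-13 arm and 0, 555, 1069.8, 1408 and 1849 CPM in the IL-5 arm. At 30 min the lowest, median and highest values were 0, 540.1 and 1201 CPM and 0, 306 and 908 CPM, and in activated cells 0, 274 and 1296 CPM and 0, 150.4 and 1081 CPM. In each arm 1 pre cell had 0 reads, so the groups overlapped, and the group log2 ratio of activated to pre was -1.43 (-1.54 to -1.32) and -1.70 (-1.82 to -1.58). The first was -0.78 without IL-13 pre replicate 4, the highest of its group. Ndufa3, another accessory subunit, was lower at 30 min in the IL-13 arm, where pre cells held 1311, 1624, 2669, 4116 and 4864 CPM and the 30 min cells 210, 811 and 1414 CPM, with a log2 ratio of -1.81 (-1.89 to -1.73) and the groups overlapping only between 1311 and 1414 CPM. In the IL-5 arm its pre and 30 min groups held 1317 and 1181 CPM, within 2-fold of each other. Ndufaf2, an assembly factor related to a subunit of the enzyme, had reads in 4 of 5 pre cells of the IL-5 arm and in 0 of 10 cells at 30 min. The reads of those 4 pre cells numbered 1, 94, 98 and 123. The 95% counting interval put the 30 min level at least 249-fold lower. That bound covers the counting of reads that were not collapsed by molecular identifiers and leaves out the spread over these few cells.

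Among the catalytic core subunits of complex I, Ndufs8 held 114 and 498 CPM in pre and activated cells of the IL-13 arm, with reads in 1 of 5 and 11 of 11 cells, but 319 and 339.8 CPM in the IL-5 arm. Ndufv2 held 320.4 and 719.9 CPM in the former and 513 and 522 CPM in the latter, and the IL-13 log2 ratio was 0.75 against the pre cells of both arms. Ndufs3 went from 258 to 56.8 CPM at 30 min in the IL-13 arm and from 205 to 98.3 CPM in the IL-5 arm, a log2 ratio of -1.06 that was -0.82 without IL-5 pre replicate 4, -0.71 with TMM scaling and 0.00904 on the first date alone, where it changed sign. The last 300 bases of Ndufs3 have a near-identical pseudogene (Gm12251), with 10 reads of its own in all cells. Levels of Ndufs1, Ndufs7 and Ndufv1 in activated cells were 53.5, 433 and 44.8 CPM in the IL-13 arm and 38.6, 451 and 80.9 CPM in the IL-5 arm. Ndufs7 and Ndufv1 lay within 2-fold of pre, while Ndufs1, with a mean of 32.6 CPM, was too sparse for a ratio. The IL-5 pre level of Ndufv1 came from replicate 1 alone, at 750 CPM, with 0 reads in the other pre cells of that arm.

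Other complex I members differed in 1 arm or comparison. Ndufc1 was higher in silent than pre cells of the IL-13 arm (736 against 140 CPM, with reads in 10 of 11 and 2 of 5 cells) and not in the IL-5 arm (689.9 against 878 CPM), and the IL-13 log2 ratio was 0.42 against the pre cells of both arms. Ndufa8 was higher in silent than activated cells, at 424 against 132 CPM in the IL-13 arm and 410.4 against 227 CPM in the IL-5 arm, where the log2 ratio of activated to silent was -0.85 (-0.98 to -0.73). Ndufa13, also known as a binding partner of STAT3, was lower in activated than silent cells of both arms, by log2 ratios of -0.73 (-0.84 to -0.63) and -0.94 (-1.03 to -0.86). Ndufc2 was higher in activated than silent cells of the IL-13 arm, with a log2 ratio of 1.58 (1.45 to 1.71), while the IL-5 ratio was 0.053 (-0.05 to 0.16). Ndufa6 was higher in activated than pre cells of the IL-5 arm, with a log2 ratio of 2.97 (2.62 to 3.34), where its pre cells held 0, 0, 0, 37.8 and 192 CPM, and its IL-13 ratio was 0.43 (0.18 to 0.69). Ndufa9 was higher than pre in both arms, with log2 ratios of 1.61 and 2.49 in silent cells. Ndufb3 (log2 ratio 1.14, interval 0.96 to 1.31 in activated against silent IL-5 cells) and Ndufs5 (log2 ratio 2.35, interval 2.11 to 2.60 in silent against pre IL-5 cells) have near-identical copies elsewhere, so their counts are uncertain. On the first date alone the Ndufb3 ratio was 0.67. The assembly factors Ndufaf3 and Ndufaf8 were lower in activated than silent cells of the IL-5 arm, with log2 ratios of -1.57 and -0.94, and Ndufaf3 had -0.73 in the IL-13 arm.

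Complex II, succinate dehydrogenase, is shared with the tricarboxylic acid cycle and its sum ranged over groups from 300 CPM at 30 min of the IL-13 arm to 622 CPM in activated cells of the IL-5 arm. Sdha, the flavoprotein that binds succinate, had a log2 ratio of activated to pre of 2.40 (1.53 to 3.42) in the IL-13 and -1.37 (-1.58 to -1.17) for the IL-5 arm, and its pre level was 11.4 and 304 CPM. The 5 pre cells of the IL-5 arm held 0, 64.8, 75.5, 392 and 799 CPM, and the ratio was -0.21 without IL-5 pre replicate 2. Against the pre cells of both arms together the ratios were -1.53 and -0.57, so the signs no longer differed. Sdhb, the iron-sulfur subunit, had reads in 10 of 11 and 11 of 11 activated cells, at 198 and 222 CPM beside 143 and 107 CPM in pre cells, for log2 ratios of 0.47 (0.20 to 0.74) and 1.05 (0.78 to 1.33). The membrane anchors Sdhc and Sdhd had log2 ratios of 0.93 (0.52 to 1.37) and -0.37 (-0.62 to -0.12) in the IL-13 arm and 1.42 (0.94 to 1.94) and 1.00 (0.72 to 1.30) for the IL-5 arm. Without IL-5 pre replicate 2, Sdhb and Sdhd were at 0.63 and 0.58 in that arm, and against the pre cells of both arms at 0.85 and 0.48. The SD over cells of the summed complex was 1.52 on the log2 scale, and each difference between groups of the sum was smaller.

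Complex III, which hands electrons from quinol to cytochrome c, had the largest ratio of activated to pre cells among the complexes in both arms with all cells. Its summed nuclear level went from 4698 CPM in pre to 7201 CPM in activated cells of the IL-13 arm and from 4913 to 6675 CPM in the IL-5 arm. The log2 ratios were 0.62 (0.57 to 0.66) and 0.44 (0.40 to 0.48), beside an SD over cells of 0.48. The first exceeded the SD with all cells, but not without IL-13 pre replicate 2 or without IL-13 pre replicate 3, where it was 0.46. The second was 0.91 with TMM scaling and 0.69 without IL-5 pre replicate 4, beyond the SD, and 0.24 without IL-5 pre replicate 5. Without IL-13 pre replicate 1 the IL-13 ratio was 0.86, and that of complex II, at 0.97, was larger. Over cells of the IL-13 arm, the lowest, median and highest activated values were 4534, 6750.4 and 10672 CPM, and 11 of 11 lay above the pre median, as did 10 of 11 in the IL-5 arm. The 30 min level was 3320.2 and 4919 CPM, lower than pre only in the IL-13 arm. Of 9 tabulated nuclear members, 4 were at least 2-fold higher in activated than pre cells in each arm and 0 lower, beside 35.0% and 23.9% of all genes in the IL-13 and 36.2% and 24.9% in the IL-5 arm.

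Cyc1, the cytochrome c1 subunit, had few reads before stimulation. Its 5 pre cells held 0, 0, 0, 85.3 and 111 CPM in the IL-13 arm and 0, 0, 0, 6.82 and 45.3 CPM in the IL-5 arm. The lowest, median and highest values at 30 min were 0, 209 and 351 CPM and 0, 157 and 467 CPM, with reads in 8 of 11 and 8 of 10 cells. Most transition cells therefore held more than any pre cell, although some had none. At 60 min the group level was 345 and 351 CPM, in activated cells 256 and 350.2 CPM and in silent cells 199.9 and 166 CPM. The log2 ratio of activated to pre was 2.46 (2.02 to 2.92) and 4.92 (4.17 to 5.80), with 45 and 14 reads in the pre groups. The core proteins Uqcrc1 and Uqcrc2 had log2 ratios of 1.94 (1.48 to 2.44) and 2.42 (2.00 to 2.86) in the IL-13 arm and 1.12 (0.81 to 1.44) and 1.14 (0.93 to 1.36) for the IL-5 arm. The IL-5 ratios were 0.76 without IL-5 pre replicate 3 for Uqcrc1 and 0.75 without IL-5 pre replicate 4 for Uqcrc2. Uqcrc2 had reads in 10 of 11 and 11 of 11 activated but 2 of 11 cells at 30 min of the IL-13 arm. Uqcrfs1, the Rieske iron-sulfur protein, was higher in activated than silent cells of the IL-5 arm, with a log2 ratio of 1.74 (1.52 to 1.95), and its IL-13 ratio was 0.56 (0.37 to 0.75). Cytochrome c itself is encoded by Cycs, which is outside the symbol rule, and its level was 492, 986, 2156 and 849 CPM in pre, 30 min, activated and silent cells of the IL-13 arm and 389, 1931, 2104 and 1256 CPM in the IL-5 arm.

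Complex IV, cytochrome c oxidase, reduces oxygen and was the complex in which the pre groups of the arms differed most. Its summed nuclear level was 16987 CPM in pre cells of the IL-13 arm and 10540.5 CPM in those of the IL-5 arm. The log2 ratio of silent to pre was -0.65 (-0.68 to -0.62) in the IL-13 arm and 0.30 (0.27 to 0.33) for the IL-5 arm, of opposite sign, whereas the silent levels themselves were 10808 and 13006 CPM. The SD over cells was 0.34, and the IL-5 ratio was 0.68 with TMM scaling and 0.49 without IL-5 pre replicate 4. Against the pre cells of both arms the ratios were -0.31 and -0.043, so the signs no longer differed. Cox6b1 held the same contrast, with pre cells at 1949, 1979, 2574, 2673 and 2868 CPM in the IL-13 arm and 3.26, 269.9, 600.2, 1454 and 1475 CPM in the IL-5 arm, 2 sets of values that do not overlap. Cox4i1, a nuclear subunit in contact with the mitochondrially encoded core, held 2147 and 1064 CPM in pre and 1169.6 and 1206 CPM in activated cells. Ndufa4 was lower at 30 min of the IL-13 arm, from 634, 1529.7, 1718, 1950.2 and 3993 CPM in the 5 pre cells to 4.74, 457 and 1765 CPM, and its log2 ratio was -1.73 (-1.83 to -1.63) there and -0.32 (-0.40 to -0.23) for the IL-5 arm, the latter within the TMM shift. Cox7c, at a log2 ratio of -1.40 (-1.51 to -1.30) in silent against pre IL-13 cells but -0.94 without IL-13 pre replicate 4 and -0.81 against the pre cells of both arms, shares its 3′ end with other annotated genes and is uncertain.

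Cox7a2l, a paralogue of Cox7a1 and Cox7a2, was lower in activated than in pre cells of both arms. Its 5 pre cells held 211, 255, 509.9, 588 and 918 CPM in the IL-13 arm and 107, 171, 395, 517 and 649.6 CPM in the IL-5 arm, all with reads. The lowest, median and highest activated values were 0, 30.5 and 239 CPM and 0, 56.8 and 204 CPM, so the highest activated cell lay under the median pre cell in both. The log2 ratio of activated to pre was -2.45 (-2.67 to -2.23) and -2.34 (-2.56 to -2.11). Silent cells differed between the arms, at 0, 259 and 1494 CPM in the IL-13 and 0, 42.1 and 373 CPM in the IL-5 arm. Cox7a2, the ubiquitous form of the related complex IV subunit, had the opposite pattern, with pre cells at 0, 48.6, 468, 1090.3 and 1836 CPM and 0, 15.0, 176, 283 and 999 CPM and activated cells at 453, 1402 and 2278 CPM and 448, 982 and 3521 CPM. Activated against pre was 0.90 (0.79 to 1.01) and 1.86 (1.71 to 2.00). Activated against silent was 2.00 (1.90 to 2.10) in the IL-13 arm, and 0.27 (0.21 to 0.34) for the IL-5 arm. Of the reads of the 3 Cox7a genes, Cox7a2l thus held 38.2% and 50.6% in pre cells and 5.66% and 5.29% in activated cells. The share in silent cells was 52.9% in the IL-13 and 8.57% in the IL-5 arm. Activated against silent IL-13 cells gave -0.96 for Cox7a2l on the first date alone.

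Several paralogues of complex IV subunits had few or no reads. Cox4i2, Cox6a2, Cox7b2, Cox8b, Cox8c and Ndufa4l2 had 0 reads in 120 cells, which with 3 reads as the limit allows up to 0.0967 CPM each. Cox6b2 had 102 reads in 3 cells and Cox7a1, the muscle form, 507 reads in 11 cells, including 4 of 11 silent cells of the IL-13 arm. The reads of these subunits thus came from Cox4i1, Cox6a1, Cox6b1, Cox7b, Cox8a and Ndufa4.

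**Figure D4:**
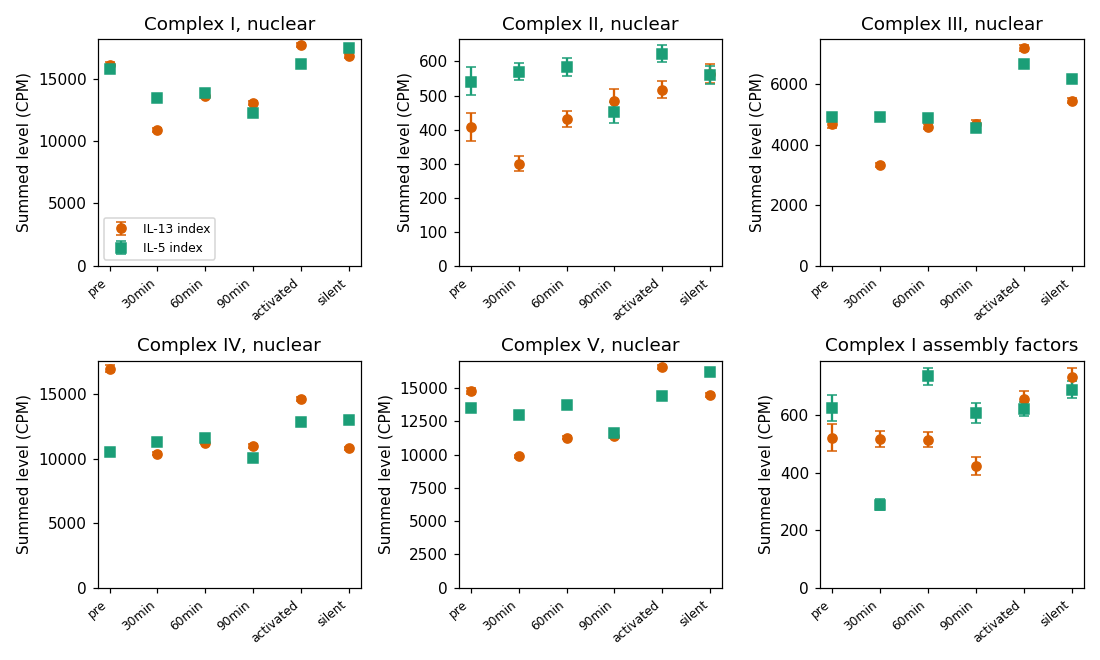
Summed level (CPM) of the nuclear members of each complex in the 6 states of the IL-13 (circles) and IL-5 (squares) arm, with exact 95% Poisson intervals of the reads, which are often smaller than the symbols and leave out the spread over cells. Complex III is highest in activated cells of both arms, and complex IV differs between the pre groups.

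Complex V, the ATP synthase, held 14768, 9864, 16569 and 14468 CPM in pre, 30 min, activated and silent cells of the IL-13 arm. The IL-5 levels were 13461, 13001, 14420.3 and 16166 CPM. The 30 min level was the lowest of the 4 in both, with log2 ratios to pre of -0.58 (-0.61 to -0.55) and -0.05 (-0.076 to -0.024), beside an SD over cells of 0.36. The second turned to 0.31 with TMM scaling, where pre was the lowest of the 4, to 0.075 on the first date and to 0.12 without IL-5 pre replicate 4. Atp5b, the catalytic beta subunit, held 737 and 441 CPM in pre and 955 and 1179 CPM in activated cells, with log2 ratios of 0.37 (0.26 to 0.49) and 1.42 (1.29 to 1.55). Atp5a1, the alpha subunit, had ratios of 1.46 (1.25 to 1.67) and 0.06 (-0.065 to 0.19), and the first was 0.55 against the pre cells of both arms. Atp5f1, the b subunit of the stalk, was higher at 30 min, where its lowest, median and highest values were 222, 915 and 1284 CPM and 196, 965 and 1725 CPM, beside pre cells at 0, 0, 5.92, 727 and 1250.2 CPM and 0, 7.50, 174, 297 and 846 CPM. Atp5e, the epsilon subunit, had log2 ratios at 30 min of -0.58 (-0.68 to -0.49) and -1.04 (-1.12 to -0.96), and the second was -0.80 without IL-5 pre replicate 3, -0.68 with TMM scaling, -0.33 on the first date alone and -0.87 against the pre cells of both arms.

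Atp5mpl, a small subunit of the membrane domain, separated the pre groups. The 5 pre cells held 243, 699, 711, 898 and 959 CPM in the IL-13 arm and 0, 0, 0, 120 and 224 CPM in the IL-5 arm, and these did not overlap. At 30 min the lowest, median and highest values were 0, 203 and 553 CPM and 311, 603 and 1009 CPM. The log2 ratios to pre were therefore of opposite sign, -1.79 (-1.96 to -1.63) and 3.51 (3.15 to 3.89), and every IL-5 cell at 30 min lay above every IL-5 pre cell. Against the pre cells of both arms together they were -0.75 and 0.80.

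The c subunit, which forms the rotating ring, is made from 3 genes whose mature proteins are known to be identical. Atp5g1 held 52.0% of their reads over all cells, Atp5g3 45.3% and Atp5g2 2.69%. Atp5g1 held 1157, 750.1, 1732 and 1377 CPM in pre, 30 min, activated and silent cells of the IL-13 arm and 466, 901, 1718 and 1602 CPM in the IL-5 arm. Atp5g3 held 668, 823, 1507 and 841 CPM and 681, 1047, 1451 and 1328 CPM. For both genes the activated groups were the highest of the 4 in each arm, and activated against pre was 1.17 (1.05 to 1.29) and 1.09 (0.99 to 1.20) for Atp5g3. Atp5g2 was lower in activated than silent cells of the IL-5 arm, with a log2 ratio of -0.90 (-1.16 to -0.63), and its IL-13 ratio was -0.22 (-0.51 to 0.062). Both Atp5g1 and Atp5g2 have near-identical pseudogenes, with 63 and 227 reads, so their counts are uncertain.

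Of 230915 reads in mitochondrial members, mt-Cytb held 34.6%, mt-Nd1 26.9%, mt-Nd4 22.5% and mt-Nd2 7.51%. These 4 genes had reads in all 114 cells. In contrast, mt-Co2, mt-Co3, mt-Atp6, mt-Atp8 and mt-Nd3 each held 0.415% or less, mt-Nd6, the only member on the light strand, had 25 reads, and mt-Nd4l had 0. Most of the low genes are also present in the nuclear genome. The annotation holds a near-complete nuclear copy of part of the mitochondrial genome on chromosome 1, and HTSeq leaves out reads that align to more than 1 place. Such reads were 28.7% of all entries in the files, for all genes together. By alignment of transcripts (at least 97% identity over at least 91 bases, the read length), mt-Co1, mt-Co2, mt-Atp6, mt-Co3, mt-Nd3 and mt-Nd4l matched an annotated copy over 99.0% or more of their length, and mt-Nd4 over 63.6%. The 6 fully matched genes held 4.37% of the reads and the 7 others 95.6%. The 8 copies together had 134 reads. The levels of the 6 genes are therefore of unknown scale, and how many reads were left out was not measured.

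To show how close the copies are, a read-length stretch of mt-Co2 (chrM:7013-7103, plus strand, GRCm38) is set beside its copy Gm28661 (chr1:24615475-24615565, minus strand), to which it was identical over all 681 aligned bases. The stretch of mt-Nd3 (chrM:9459-9549, plus strand) and of its copy Gm28438 (chr1:24613029-24613119, minus strand) holds the only difference in 345 aligned bases, T3C (position 3 from the start of mt-Nd3), in capitals. Sequences are from the GENCODE transcripts, 5′ to 3′.
mt-Co2: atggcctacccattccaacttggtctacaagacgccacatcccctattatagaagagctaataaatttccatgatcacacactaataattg
Gm28661: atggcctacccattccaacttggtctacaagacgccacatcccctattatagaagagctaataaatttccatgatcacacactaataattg
mt-Nd3: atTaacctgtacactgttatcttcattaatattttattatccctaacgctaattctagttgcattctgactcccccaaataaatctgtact
Gm28438: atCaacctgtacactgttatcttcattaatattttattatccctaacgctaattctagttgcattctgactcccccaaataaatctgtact

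**Figure D5:**
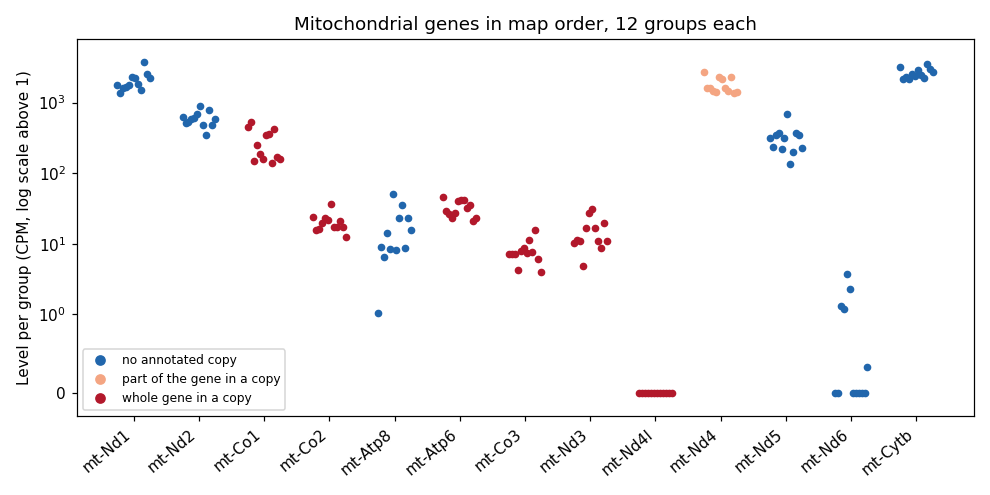
Level of each of the 13 mitochondrial genes in the 12 groups (points, CPM on a log scale above 1 and linear below it), in their order on the mitochondrial map. Genes without an annotated nuclear copy are blue, mt-Nd4, with part of its length in a copy, is light red, and genes with their whole length in a copy are dark red; mt-Nd4l is at 0 in all groups.

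Among the genes without a copy, mt-Cytb, the only mitochondrial subunit of complex III, held 3228, 2189, 2549 and 2359 CPM in the IL-13 arm and 2944, 2493, 3014 and 2728 CPM in the IL-5 arm, in the order pre, 30 min, activated and silent. The pre and activated levels lay within 1.5-fold of each other in both arms. For mt-Nd1, a membrane arm subunit of complex I, the same order was 1779, 1364, 1763 and 2279 CPM in the IL-13 arm and 2200.2, 1815, 2531 and 2267 CPM in the IL-5 arm. Activated IL-5 cells thus held no less than pre cells, with a log2 ratio of 0.20 (0.14 to 0.26). For mt-Nd2 the levels were 631, 520, 613 and 686 CPM in the IL-13 arm and 892, 475, 480.4 and 585 CPM in the IL-5 arm, and for mt-Nd5 314, 234, 223 and 314 CPM in the IL-13 arm and 689, 135, 345 and 229 CPM in the IL-5 arm. Both levels lay under pre at 30 min in each arm, by log2 ratios of -0.28 and -0.91 for mt-Nd2 and -0.43 and -2.35 for mt-Nd5. Only the last was past 2-fold. The pre cells of the IL-5 arm spread widely for mt-Nd5, at 128, 202, 338, 1246 and 1331 CPM. Of mt-Nd4, part lies in a copy, and its level was lower than pre in activated cells, by -0.92 (-0.99 to -0.85) and -0.69 (-0.75 to -0.62). Without the 7 genes that have a copy, the mitochondrial sum had log2 ratios to pre of -0.46 (-0.51 to -0.42) and -0.45 (-0.48 to -0.41) at 30 min and -0.21 (-0.25 to -0.16) and -0.075 (-0.11 to -0.038) in activated cells, the last within the TMM shift.

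mt-Co1, the catalytic subunit of complex IV, was the only 1 of the 6 tabulated mitochondrial genes past 2-fold in the same direction in both arms. Pre cells held 172, 225, 565, 605 and 616 CPM in the IL-13 arm and 20.5, 30.0, 257, 493 and 910.4 CPM in the IL-5 arm. The lowest, median and highest values at 30 min were 25.1, 455 and 1243 CPM and 12.9, 310.5 and 848 CPM, much like pre. In activated cells they were 8.36, 119.6 and 560.4 CPM and 53.5, 167 and 378 CPM, and in silent cells 8.89, 61.5 and 831 CPM and 14.8, 131 and 352 CPM. Most cells at 8 h thus held less than most pre cells, with overlap. The log2 ratio of activated to pre was -1.28 (-1.46 to -1.10) and -1.06 (-1.24 to -0.88), and of silent to pre -1.53 (-1.72 to -1.33) and -1.16 (-1.35 to -0.96). Of all genes, 23.9% and 24.9% were at least 2-fold lower in activated and 18.7% and 21.7% in silent cells, in IL-13 and IL-5 order. In both arms together, 13.2% of all genes were lower in activated and 7.07% in silent cells. The IL-5 ratios were -0.45 without IL-5 pre replicate 5 for activated and -0.55 without IL-5 pre replicate 5 for silent cells, and -0.59 and -0.78 with TMM scaling. On the first date alone, silent IL-13 cells were at -0.90 and activated IL-5 cells at -0.88. The group level was also low at 60 min, at 150.2 and 139.6 CPM, and higher at 90 min, at 247 and 428 CPM. These are the reads that remained unique beside the nuclear copy.

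The low genes ranged over groups from 12.4 to 37.1 CPM for mt-Co2, 3.91 to 15.9 CPM for mt-Co3, 20.9 to 45.6 CPM for mt-Atp6 and 1.04 to 50.6 CPM for mt-Atp8, and mt-Nd3 reached 31.3 CPM. The mt-Atp8 and mt-Atp6 reading frames overlap on the same strand, and so do those of mt-Nd4l and mt-Nd4, so a read in the shared part may count for neither. No direction is given for these genes. The mitochondrial rRNAs, which are not members, summed to 10942, 14940, 7439 and 18014 CPM in pre, 30 min, activated and silent cells of the IL-13 arm and to 12927, 11794, 6656 and 7349.9 CPM in the IL-5 arm.

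The number of nuclear members seen per cell also differed between groups at equal depth. With each cell thinned to 100000 gene reads, the lowest, median and highest number of the 94 nuclear members with a read was 51, 57 and 81 in pre, 53, 61 and 65 at 30 min, 43, 76 and 79 in activated and 49, 68 and 77 in silent cells of the IL-13 arm. In the IL-5 arm the numbers were 54, 65 and 72, 64, 67.5 and 77, 66, 78 and 81 and 51, 74 and 79. Activated cells had the highest median in both. The unthinned medians were 59, 62, 78 and 68 in the IL-13 and 66, 71, 78 and 74.5 in the IL-5 arm. Thinning left out 3 cells at 90 min of the IL-13 arm and 1 cell each in the 30, 60 and 90 min and silent groups of the IL-5 arm. The cell with the most cell cycle transcripts had 81 members, the most of the 5 pre cells of the IL-13 arm, whose other 4 had 51, 55, 57 and 63. The number of all genes detected was also highest in activated cells, with unthinned medians of 3140 and 3305 beside 2024 and 2591 in pre cells, and its part in the count of members was not tested.

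Nuclear subunit genes are known to share binding sites for NRF1, ETS-family factors and YY1 near their start sites. RefSeq promoter sequences (GRCm38.p6, 250 bases before to 50 after the start) were matched by symbol for 74 of 94 nuclear members, with 79 entries, and were not matched for 20. The letters GCGCANGCG (NRF1-like), on either strand, occurred in 29.1% of the members' promoters and in 6.25% of all 32851 promoters. CCGGAAG (ETS-like) occurred in 22.8% and 8.86%, and AAGATGG (YY1-like) in 13.9% and 6.34%. The NRF1-like letters were found in 7 of 16 complex V, 9 of 34 complex I and 1 of 14 complex IV promoters. Members with these letters had median log2 ratios of activated to pre of 0.39 and 0.46 (21 members), and those without 0.13 and 0.041 (46 members), in IL-13 and IL-5 order. At 30 min the medians were -0.35 and 0.069 with and -0.57 and -0.17 without them. For silent against pre they were 0.12 and 0.25 with and 0.048 and 0.18 without, and for activated against silent 0.27 and -0.033 with and 0.18 and -0.054 without them, so the medians lay closer together in these comparisons. A match is a description of letters and not a site.

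The sequences show an NRF1-like match in capitals with 25 bases on each side, for the 6 members of highest mean level among those whose match and both flanks lie wholly within the 250 bases before the start. This leaves out members of higher level with a match nearer the start, such as Atp5g3 and Uqcr11, and the capitals mark matches on the strand of the gene. In Cox6a1, Atp5k and Ndufa11 the letters also match on the other strand, shifted by a base. They are Atp5h (chr11:115420027-115420085, minus strand), Cox6a1 (chr5:115349087-115349145, minus strand), Ndufa5 (chr6:24527683-24527741, minus strand), Atp5k (chr5:108434416-108434474, minus strand), Ndufa11 (chr17:56717677-56717735, plus strand) and Ndufb4 (chr16:37654526-37654584, minus strand).
Atp5h: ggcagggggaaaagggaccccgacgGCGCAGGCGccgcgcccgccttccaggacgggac
Cox6a1: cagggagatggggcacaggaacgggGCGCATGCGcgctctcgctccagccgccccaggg
Ndufa5: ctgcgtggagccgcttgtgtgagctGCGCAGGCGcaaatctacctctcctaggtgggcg
Atp5k: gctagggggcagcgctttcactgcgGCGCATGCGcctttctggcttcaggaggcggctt
Ndufa11: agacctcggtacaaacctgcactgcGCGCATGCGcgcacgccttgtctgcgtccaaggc
Ndufb4: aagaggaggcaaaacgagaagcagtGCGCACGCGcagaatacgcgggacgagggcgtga

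Other genes of the organelle did not share 1 pattern. Of 23 tabulated genes of mitochondrial protein import and chaperones, 15 were at least 2-fold higher and 1 lower in activated than pre cells of the IL-13 arm and 13 and 2 in the IL-5 arm, with medians of 1.53 and 1.37 beside 0.27 and 0.23 over all genes. The shares of all genes higher and lower, against which this and the lists that follow are read, were 35.0% and 23.9% in the IL-13 and 36.2% and 24.9% in the IL-5 arm. Hspe1, a matrix co-chaperonin, held 163 and 392 CPM in pre and 2129 and 1831 CPM in activated cells. Tomm40, the pore of the outer membrane, held 3.11 and 0 CPM and 247 and 222 CPM. This list stood above the subunits. Of 64 mitochondrial ribosomal proteins, 25 were higher and 4 lower in IL-13 activated cells and 26 and 8 in the IL-5 arm (medians 0.33 and 0.32; 39.1% and 40.6% higher, near the share of all genes), and at 30 min 19 and 23 in the IL-13 and 19 and 17 in the IL-5 arm (medians -0.57 and -0.0019). Of all genes, 32.1% and 23.8% were higher and lower at 30 min in the IL-13 and 36.2% and 20.4% in the IL-5 arm. Assembly factors outside the symbol rule had lower medians, with 3 of 16 higher and 7 lower in activated against pre cells of the IL-13 arm and 2 and 5 in the IL-5 arm (medians -0.61 and -0.51). Cox20, a chaperone for the second complex IV subunit, held 562 and 893 CPM in pre and 259.6 and 217 CPM in activated cells.

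Of 12 tricarboxylic acid cycle genes, 1 was higher and 2 lower in IL-13 activated cells and 6 and 2 in the IL-5 arm. Of 15 carriers and related membrane proteins, 5 were higher and 3 lower in the former and 10 and 1 in the latter, and Slc25a5, an ADP/ATP carrier, held 536 and 459.5 CPM in pre and 1213 and 1781 CPM in activated cells. Few members of the remaining lists were tabulated: 4 electron carriers and their enzymes (1 higher and 0 lower in activated IL-13 cells, 2 and 0 in IL-5 cells), 3 genes of mitochondrial gene expression (1 and 0, 2 and 0) and 3 regulators (1 and 0, 2 and 0). Among the regulators, Myc, known to promote mitochondrial biogenesis, held 20.7, 352 and 189 CPM in pre, 30 min and activated cells of the IL-13 arm and 105, 351 and 326 CPM in the IL-5 arm. Myc was chosen for naming after its values were seen, as were Hspe1, Tomm40, Cox20, Slc25a5, Cycs and Atp5e, and the members that lay past 2-fold in both arms.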

How the data were processed

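Each of the 120 samples is 1 cell. Per the study's methods and processing notes, the authors trimmed 91-base reads of 3′ libraries, aligned them to the mouse genome (GRCm38; the notes name TopHat2, mm10 and also GRCh38, with no role stated) and counted them per Ensembl gene with HTSeq, and the deposited files hold these raw read counts. The strand setting and annotation release are not given in the sources used here. Reads in genes were 62.0% of all entries, with 28.7% not unique, 7.42% in no feature and 1.86% ambiguous, and these summary entries were left out of library sizes and levels. Identifiers were named with GENCODE M21, which matched 45143 of 46078, and the others held 0.0886% of gene reads.

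A group's level is the sum of its cells' reads of a gene over the sum of all their gene reads (Python 3.11.15, numpy 2.4.6, pandas 2.3.3, scipy 1.17.1, matplotlib 3.10.9). Intervals at 95% are exact Poisson for levels and Clopper-Pearson for ratios. Groups under 3 reads were set to 3 in ratios. No model was fitted and no p-value given, since no label ties cells to separate animals or cultures and each of the 12 groups was 1 sample. The SDs are pooled over cells within groups, on log2 CPM. Named members are every mitochondrial gene, paralogous subunits, Sdha to Sdhd, Cyc1, catalytic core subunits and, in each comparison, the 4 highest and 4 lowest nuclear ratios among tabulated members with a read in at least 70% of the cells of the higher group. A gene that this rule names is not reported here. Near-identical copies were sought among GENCODE M21 transcripts with BLAST+ 2.17.0, over the last 300 bases of nuclear and the whole of mitochondrial members. In all, 19 members overlap another gene on the same strand and 35 on the other. Scaling factors for alternatives came from edgeR 4.0.16 (TMM) and DESeq2 1.42.0 in R 4.3.3. The ratio code was tested on simulated data. The members, gene lists and comparisons were chosen with earlier results of these data known.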

Additional observations from a re-analysis of the deposited data

How the results depend on the processing

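With TMM scaling the summed nuclear log2 ratio to pre in the IL-5 arm was 0.28 at 30 min, 0.63 in activated and 0.62 in silent cells, and the summed mitochondrial ratio of activated to pre was 0.24. In that arm 5 and 3 nuclear members were then lower at 30 min and in activated cells, a smaller share than of all genes with the same scaling. TMM shifts all genes alike by construction. DESeq2 size factors, a denominator of nuclear genes, a total without cytokine reads, the mean of the cells, the sums without shallow cells, without assembly factors or without members that have a copy, and either date alone moved no sum by more than 1 SD over cells. Sums changed sign all the same, 5 times for nuclear and 4 times for mitochondrial members over all settings named here, and 2 times each when 1 cell was left out. With 90 min cells in place of 30 min cells, chosen after seeing the data, the IL-5 mitochondrial ratio was 0.25, and -0.10 without replicate 11, so its sign rested on that shallow cell.

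Counts of nuclear members moved with the limits by construction. At a mean of 200 CPM, where 60 members and 812 genes were tabulated and 6.65% to 30.5% of all genes lay past 2-fold in a direction, the higher members numbered 3, 7 and 6 at 30 min against pre, silent against pre and activated against silent for IL-13, and 8, 15 and 4 at 30 min and activated against pre and activated against silent for IL-5. The lower members numbered 9 at 30 min and 2 for activated against silent for IL-13, and 6, 3, 3 and 0 in the 4 IL-5 comparisons. The share of members was under that of all genes in 13 of 16 counts over comparisons and directions, the exceptions being lower members at 30 min (15.0% beside 13.9% for IL-13 and 10.0% beside 9.48% for IL-5) and higher members in activated against silent IL-5 cells (6.67% beside 6.65%). At a mean of 10 CPM, 11 and 2 were lower in silent against pre and activated against silent IL-5 cells, 12.6% beside 31.9% and 2.30% beside 26.6% of all 6620 genes, and the share of members was the smaller in 16 of 16 counts. At 1.5-fold, with 24.0% to 43.0% of all genes past it in a direction, 31, 23 and 19 were higher for IL-13 in activated and silent against pre and activated against silent, and 22 for IL-5 at 30 min, while 34, 10, 16 and 9 were lower in the IL-13 and 21, 16, 11 and 13 in the IL-5 comparisons, and the share was the smaller in 15 of 16, all but the lower members at 30 min for IL-13 (42.5% beside 32.4%). These shares of all genes were computed after seeing the data. Against the pre cells of both arms, 6 and 7 were higher at 30 min and in silent cells for IL-13, and 8, 15 and 13 higher and 6 lower (30 min) for IL-5. On the first date alone, 22 were higher in silent IL-13 cells and 4 lower in activated against silent IL-5 cells. In these last 2 settings the share of members was under that of all genes in every comparison and direction. The cause of the changed counts was not tested.

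Leaving out 1 cell at a time gave 16 to 32 members higher in activated and 14 to 27 in silent against pre IL-13 cells, with the highest of both without IL-13 pre replicate 1. For activated against silent IL-5 cells it gave 4 to 10 higher, the lowest without IL-5 silent replicate 11 and the next, 5, without activated or silent replicate 6, and 1 to 4 lower, the highest without activated replicate 5 or 11, with 17 of 22 omissions over 1.5 times from the count with all cells. The share of all genes moved with the omissions too, and in each omission of these comparisons the share of members was under it. Of 153 named ratios past 2-fold, 88 stayed past it under both scalings, without shallow cells, on the first date and against the pre cells of both arms, and 65 also without any 1 cell. The direction turned against the pre cells of both arms for Ndufaf8 (IL-13 30 min, -0.46), Sdha (IL-13 30 min, -2.44), Atp5g2 (IL-13 activated, -0.063), Ndufc1 (IL-13 activated, -0.18), Sdha (IL-13 activated, -1.53) and Sdha (IL-13 silent, -1.48), on the first date for Ndufaf8 (IL-13 30 min, -0.28), Uqcrc2 (IL-13 30 min, 0.12) and Ndufs3 (IL-5 30 min, 0.00904), and without 1 cell for Ndufv1 (IL-13 30 min, -0.12 to 5.20 over omissions, turned without IL-13 30 min replicate 2), Sdha (IL-13 30 min, -0.023 to 2.94 over omissions, turned without IL-13 30 min replicate 9), Uqcrc2 (IL-13 30 min, -2.32 to 2.36 over omissions, turned without IL-13 pre replicate 5) and Ndufaf3 (IL-5 activated, -1.93 to 0.19 over omissions, turned without IL-5 pre replicate 5), all against pre, and the cause was not tested. No paired analysis was possible because a replicate number names a cell and ties no cells together across groups. Title dates do tie groups other than pre within an arm, and values within dates are given above. The share of nuclear members past 2-fold was under that of all genes in 140 of 140 omissions of 1 cell for higher and 139 for lower members, and in 38 of 38 for both under the scalings, without shallow cells, on the first date and against both pre groups, alternatives chosen after seeing the data. None of these shares was matched for level. Depth limits the sparse members.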

Other observations

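Values of single complexes in the later transition groups are given here. At 60 and 90 min, complex I held 13608 and 13021 CPM in the IL-13 and 13879 and 12218 CPM in the IL-5 arm. Complex III held 4600.4 and 4697 CPM in the IL-13 and 4893 and 4537 CPM in the IL-5 arm, complex IV 11256 and 11018 CPM in the IL-13 and 11625 and 10076 CPM in the IL-5 arm and complex V 11249.9 and 11415 CPM in the IL-13 and 13726 and 11586 CPM in the IL-5 arm. Each of these sums lay under that of the activated cells of its arm. Complex I assembly factors held 289 CPM at 30 min and 736 CPM at 60 min in the IL-5 arm.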
